A study of Homo sapiens with 18 samples.

Results

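The genes described here were close to silent in MDA-MB-231 cells that carried a hairpin against luciferase (sh-LUC) and were expressed in MDA-MB-231 cells with a hairpin against IGFBP6 (sh-IGFBP6). They were chosen by level alone. A member was a protein-coding autosomal gene with a mean under 0.5 CPM (the count divided by the sum of its column, times 1000000) over the 9 sh-LUC libraries and of at least 5 CPM over the 9 sh-IGFBP6 libraries. FOXA1, CCND2, IL13RA2, EPHA3, collagens, laminins and ZNF genes were left out by name. The rule found 66 members among 18401 eligible genes and 60709 genes in the table. Since the difference between the lines chose the members, their levels in the 2 lines are a description and carry no test.

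MDA-MB-231 is an established human breast cancer line of mesenchymal, triple-negative character. IGFBP6 encodes a secreted binding protein with a preference for insulin-like growth factor II. RNA was measured in 6 groups of 3 libraries each: sh-IGFBP6 cells given 2.5 µM erastin, 200 µM docosahexaenoic acid (DHA) or vehicle for 24 h, and sh-LUC cells given 2.5 µM erastin, 200 µM DHA or vehicle for 24 h. Vehicle (control) was 0.5% DMSO with 0.5% ethanol by volume, and the labels give the sh-LUC cells the genotype WT. Every group carried a hairpin. Whether each line was a clone or a pool was not stated in the labels, so the knockdown and the history of 1 derived line cannot be told apart. Erastin blocks the cystine-glutamate exchanger and is used to trigger ferroptosis, an iron-dependent death by lipid peroxidation. DHA is an omega-3 fatty acid whose double bonds make it prone to peroxidation.

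Cells of a carcinoma line normally keep genes of other lineages silent, and a gene can move from silent to active when its chromatin or its regulators change. The members came from several such lineages. Some encode proteins that blood cells use to move and signal, others guide axons, build synapses or form muscle, and a few are cytokines or transcription factors of the embryo.

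IGFBP6 itself stood at 0.420 to 3.81 CPM in the 9 sh-IGFBP6 libraries and at 12.3 to 20.9 CPM in the 9 sh-LUC libraries, with no overlap. A single library stood apart. Replicate 3 of erastin-treated sh-IGFBP6 cells held 609936 gene counts, 54.4% of them mitochondrial ribosomal RNA, and 1 count there was worth 3.81 CPM. The other 17 libraries held 2708143 to 7977429 counts, with 0.0349% to 0.504% mitochondrial ribosomal RNA. In the thin library 55 of the 66 members had under 10 counts, so single values from it are coarse. The 6 markers of the line's own mesenchymal state summed to 3943 to 4549 CPM in sh-IGFBP6 and 5177 to 5586 CPM in sh-LUC libraries, and all 6 were present in both. The replicates are numbered but not said to be separate cultures, so p-values measure the spread between these libraries, which may be technical.

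The 66 members together took 65936 of 37143272 counts in the sh-IGFBP6 libraries and 646 of 53570829 counts in the sh-LUC libraries. BCL2A1, an anti-apoptotic BCL2 relative of blood cells, and DSCAM, a neuronal adhesion molecule, had no count in any sh-LUC library. A count of 0 there allows up to 3 counts, or 0.0560 CPM, over the whole line, for counting error only. The median member had 7.5 counts summed over the 9 sh-LUC libraries, and the highest, XIRP2, had 30. In 64 of 66 members all 9 sh-IGFBP6 libraries lay above all 9 sh-LUC libraries. The exceptions, GLB1L2 and SNCAIP, were at 0 in the thin erastin library and in no other sh-IGFBP6 library. The rule set its thresholds on these same libraries, so the separation follows largely from the choice of members and supports nothing. The share of all genes without overlap was not counted.

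**Figure D1:**
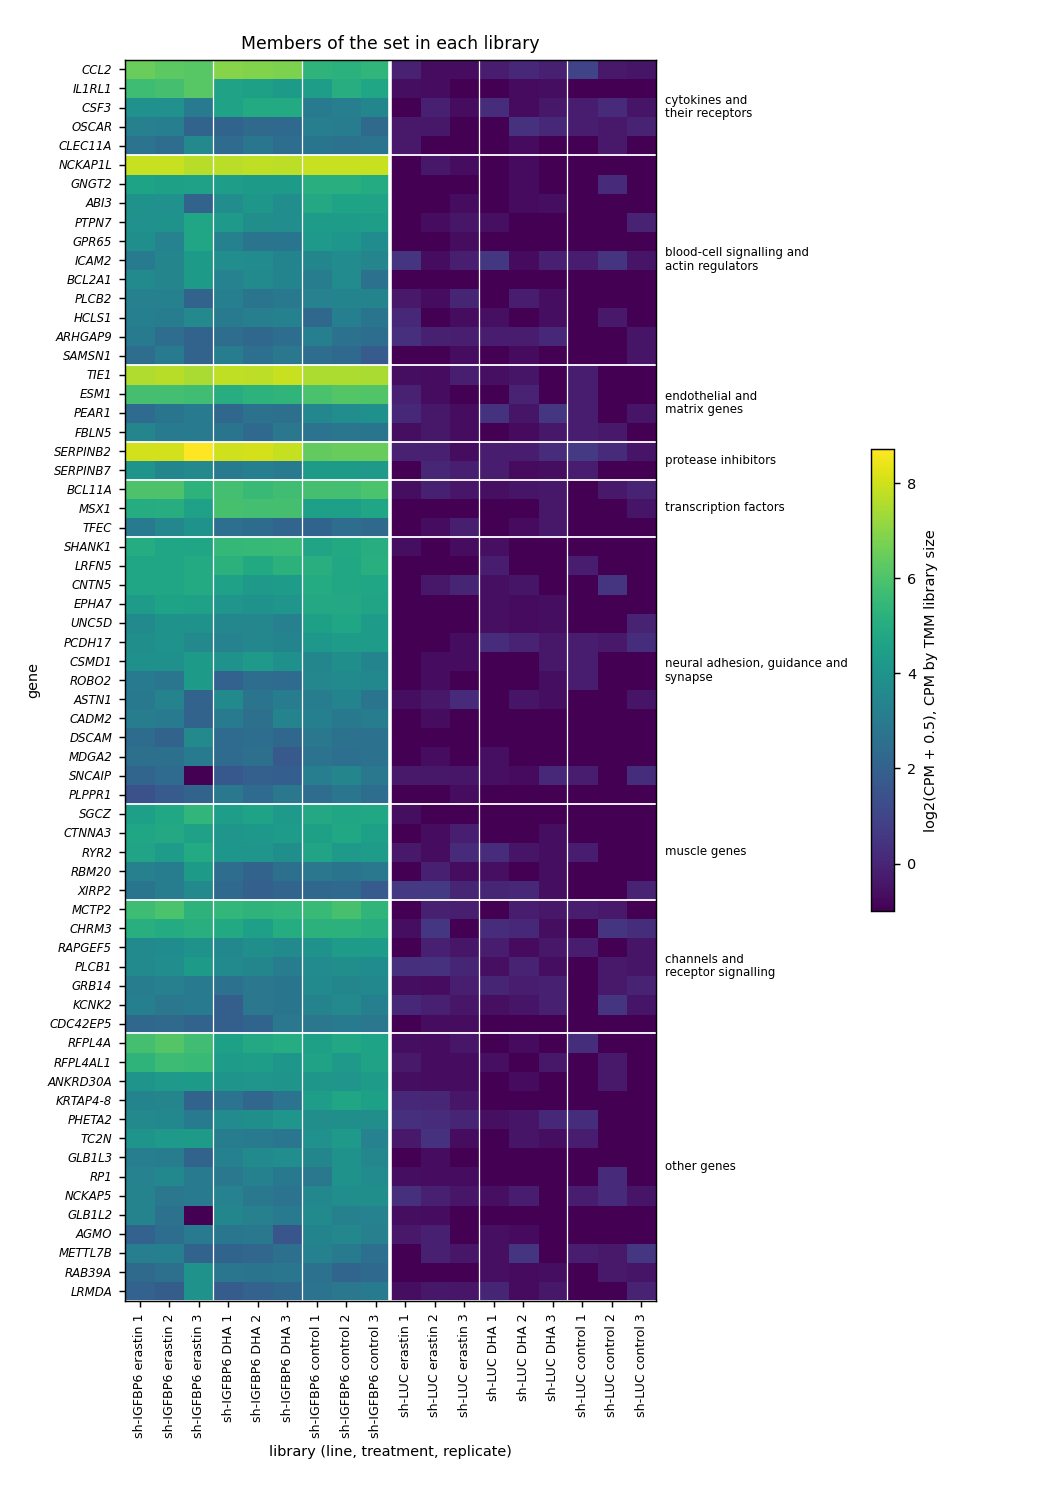
Level of 65 members (rows, in blocks by role) in each of the 18 libraries (columns), as log2(CPM + 0.5) with CPM scaled by TMM library size. The 9 sh-IGFBP6 columns on the left are lit for every block and the 9 sh-LUC columns on the right are dark; the exceptions are the dark cells of GLB1L2 and SNCAIP in sh-IGFBP6 erastin replicate 3.

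Most members were low even where they were on. The median of their rule means was 12.5 CPM in sh-IGFBP6 libraries, 38 members reached 10 CPM, 19 reached 20 CPM and 3 reached 100 CPM. Nearest above the floor of 5 CPM were PLPPR1 with 5.01 CPM, XIRP2 with 5.05 CPM and LRMDA with 5.27 CPM. Just below it stood ADRB1 with 4.58 CPM, KIAA0040 with 4.48 CPM and CCDC144A with 4.42 CPM. Nearest under the ceiling of 0.5 CPM in sh-LUC were ICAM2 at 0.4996 CPM, SERPINB2 at 0.484 CPM and XIRP2 at 0.475 CPM. GAREM1 at 0.528 CPM, LRATD1 at 0.549 CPM and TBC1D30 at 0.553 CPM lay just over it. From here on levels are CPM scaled by TMM effective library size, and log2 fold changes come from edgeR's quasi-likelihood fit with p-values adjusted by Benjamini-Hochberg over all 15189 genes tested. A gene is called at an adjusted p below 0.05. All 66 members passed the filter on low counts, and each did so through the sh-IGFBP6 line.

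The members with the most counts were NCKAP1L, SERPINB2 and TIE1. NCKAP1L (chr12:54497711-54548238 on GRCh38, GENCODE release 29) encodes the blood-cell form of a core subunit of the WAVE complex, which drives branched actin. It had 237, 240 and 206 CPM with erastin, 209, 217 and 214 CPM with DHA and 240, 240 and 239 CPM with vehicle in sh-IGFBP6 cells. No sh-LUC library exceeded 0.266 CPM. SERPINB2 (chr18:63871692-63903890) encodes the urokinase inhibitor PAI-2. TIE1 (chr1:43300993-43323108) encodes an orphan receptor tyrosine kinase of blood vessel lining that works with the angiopoietin receptor TEK. TIE1 stood at 184, 182 and 178 CPM in untreated sh-IGFBP6 cells, and its highest sh-LUC value was 0.384 CPM.

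Counts grow with transcript length, so levels of different genes were set against each other only per kilobase of merged exons. On that scale untreated sh-IGFBP6 cells had 31.1 ± 0.85 CPM per kilobase of SERPINB2, 27.1 ± 0.39 of TIE1 and 24.1 ± 1.5 of ESM1 (SD, n = 3). RFPL4AL1 followed with 24.1 ± 3.4, RFPL4A with 24.0 ± 2.7 and NCKAP1L with 22.6 ± 0.085 CPM per kilobase. From ESM1 to NCKAP1L the neighbours in this order differed by less than their spread.

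Members fell into 9 groups by what they encode, of which 1 gathers genes of other roles. The 14 neural genes were adhesion molecules (CNTN5, CADM2, MDGA2, LRFN5, DSCAM, PCDH17, ASTN1), guidance receptors (EPHA7, UNC5D, ROBO2), the complement-domain protein CSMD1, the synaptic scaffold SHANK1, the synuclein partner SNCAIP and PLPPR1, a lipid phosphatase relative. The 11 blood-cell genes were NCKAP1L, ABI3, HCLS1 and ARHGAP9 (actin regulation), PTPN7, SAMSN1, PLCB2, GNGT2 and GPR65 (signal transduction), the adhesion ligand ICAM2 and BCL2A1. The 5 cytokine genes and receptors were CCL2, CSF3, IL1RL1, CLEC11A and OSCAR. TIE1, ESM1, PEAR1 and FBLN5 were grouped as endothelial and matrix genes, BCL11A, MSX1 and TFEC among the transcription factors, and SGCZ, CTNNA3, RYR2, RBM20 and XIRP2 as muscle genes. A further 7 act in receptor signalling or as channels (CHRM3, KCNK2, PLCB1, MCTP2, RAPGEF5, GRB14, CDC42EP5), 2 are protease inhibitors and 14 had other roles. The groups were drawn by hand with the gene list known.

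Summed markers of leukocytes, endothelium and neurons overlapped between the lines, and those of fibroblasts were lower in sh-IGFBP6. Of 10 leukocyte markers, CD3D, CD3E and MS4A1 had no count in any sh-IGFBP6 library. The list summed to 2.7 to 11.4 CPM (median 3.78 CPM) in sh-IGFBP6 and 4.66 to 9.58 CPM (median 7.51 CPM) in sh-LUC libraries. Its top value of 11.4 CPM is the worth of 3 counts in the thin erastin library. The sh-IGFBP6 median lay below the lowest sh-LUC sum. The 7 endothelial markers summed to 47.8 to 62.3 CPM in sh-IGFBP6 and 50.9 to 128 CPM in sh-LUC libraries, with ERG at 0 in all sh-IGFBP6 libraries. The 8 neuronal markers summed to 6.31 to 14.9 CPM in sh-IGFBP6 and 3.61 to 12.9 CPM in sh-LUC libraries, with STMN2, ELAVL4 and GAP43 at 0 in sh-IGFBP6. The 5 fibroblast markers summed to 1.20 to 3.81 CPM in sh-IGFBP6 and 23.9 to 57.7 CPM in sh-LUC libraries. The part of such cells in the members' levels was not tested. In bulk RNA, more cells that express a gene and more RNA per cell cannot be told apart.

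The partners of 3 members were examined as lists from which the members themselves were removed, in untreated cells. Over all genes tested, 32.5% were higher and 32.1% lower in untreated sh-IGFBP6 than in untreated sh-LUC cells, so a called partner was no rarity. Of 9 other WAVE complex genes 3 were higher and 1 was lower. NCKAP1, the widely expressed counterpart of NCKAP1L, had 247 ± 15 CPM in sh-IGFBP6 and 245 ± 10 CPM in sh-LUC cells (SD, n = 3 each), a log2 fold change of 0.01 (adjusted p = 0.922 by edgeR). CYFIP2 was higher, with 15.6 ± 3.5 CPM in sh-IGFBP6 and 2.93 ± 0.59 CPM in sh-LUC cells (log2 fold change 2.39 ± 0.25 SE, adjusted p = 7.1e-16 by edgeR). WASF3, a WAVE protein itself, was lower, with 0.658 ± 0.61 CPM in sh-IGFBP6 and 8.39 ± 2.5 CPM in sh-LUC cells.

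Around TIE1, 9 other receptors and ligands were tested, and 3 were higher and 4 lower. The ligand ANGPT1 averaged 3.0 ± 0.28 CPM in sh-IGFBP6 and 22.7 ± 2.0 CPM in sh-LUC cells. VEGFA averaged 48.9 ± 6.8 CPM in sh-IGFBP6 and 361 ± 18 CPM in sh-LUC cells (log2 fold change -2.86 ± 0.07 SE, adjusted p = 9.4e-58 by edgeR). The endothelial phosphatase PTPRB was higher, with 13.2 ± 2.3 CPM in sh-IGFBP6 and 4.16 ± 0.78 CPM in sh-LUC cells. Of 10 other postsynaptic scaffold genes, the setting of SHANK1, 4 were higher and 5 lower. Among them HOMER1 was higher (36.8 ± 3.8 CPM in sh-IGFBP6, 15.8 ± 3.0 CPM in sh-LUC) and SHANK3 was lower (0.722 ± 0.21 CPM in sh-IGFBP6, 5.93 ± 2.4 CPM in sh-LUC).

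Erastin raised 10 and lowered 16 of the 66 members in sh-IGFBP6 cells. Among all genes tested 14.7% were higher and 14.3% lower with erastin, against 15.2% and 24.2% of members. The median log2 fold change was -0.06 over members and 0.00 over all genes. Without the thin erastin library the counts were again 10 and 16, but they were 9 and 10 without erastin replicate 1 or 2, and 12 and 9 without control replicate 2. With DESeq2 they were 6 and 4. Over all genes, without the filter on low counts, DESeq2 called 2895 of 40442 with erastin, 47.6% of them higher. The excess of lowered over raised members with erastin thus rested on single libraries and on the tool. Scaling by library size alone moved the median of all genes to -0.19 and gave 7 and 19 members, with 23.1% of all calls higher in place of 50.5%.

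SERPINB2 showed the largest rise with erastin. It had 263, 262 and 419 CPM in erastin-treated, 256, 268 and 233 CPM in DHA-treated and 82.8, 87.3 and 86.1 CPM in untreated sh-IGFBP6 cells. Both treated groups lay wholly above the untreated one. The log2 fold change was 1.68 ± 0.08 SE with erastin (adjusted p = 1.4e-35 by edgeR) and 1.56 ± 0.07 SE with DHA (adjusted p = 1e-34), and leaving out the thin library, which held the value of 419 CPM, gave 1.62 with erastin. In sh-LUC cells SERPINB2 had at most 5 counts in a library. Its exons share 19.9% of their bases with SERPINB10 on the same strand, which averaged 0.197 CPM in sh-IGFBP6.

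Of the 5 cytokine and receptor genes 3 rose with erastin, where 14.7% of all genes tested and 15.2% of all members were higher. The group is small and was not tested against the other members. CCL2 (chr17:34255218-34257203), the chemokine that attracts monocytes, had 89.3, 75.8 and 72.4 CPM with erastin, 122, 118 and 112 CPM with DHA and 39.1, 36.8 and 41.6 CPM with vehicle. Its log2 fold change was 1.09 ± 0.10 SE with erastin and 1.58 ± 0.09 SE with DHA, and the groups did not overlap. IL1RL1 (chr2:102311502-102352037), the receptor of interleukin-33, had 51, 57.1 and 72.4 CPM with erastin, 23.7, 22.3 and 19.1 CPM with DHA and 20.8, 32.6 and 25.4 CPM with vehicle. It rose with erastin by 1.01 ± 0.12 SE on the log2 scale, and DHA-treated cells lay below erastin-treated cells by a tested difference of -1.33 ± 0.12 SE (adjusted p = 1.6e-17 by edgeR). Against vehicle, DHA gave IL1RL1 -0.31 ± 0.13 SE (adjusted p = 0.0572), which passed the threshold without the thin erastin library (adjusted p = 0.0468).

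CSF3 (chr17:40015361-40017813), which encodes the granulocyte colony-stimulating factor, had 14.4, 14.7 and 7.62 CPM with erastin, 23.7, 30.4 and 30.1 CPM with DHA and 7.23, 8.29 and 10.6 CPM with vehicle. The DHA values lay above all others, while erastin and vehicle values overlapped. The log2 fold change was 1.70 ± 0.16 SE with DHA (adjusted p = 6e-17 by edgeR) and 0.71 ± 0.19 SE with erastin (adjusted p = 0.002). DESeq2 did not call the erastin change of CSF3 (adjusted p = 0.0898). CLEC11A, a growth factor of blood and bone progenitors, was called with neither agent, and OSCAR, an osteoclast receptor, was lower with DHA by -0.66 ± 0.27 SE (adjusted p = 0.045), a call that only 1 of 6 fits with a library left out kept.

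**Figure D2:**
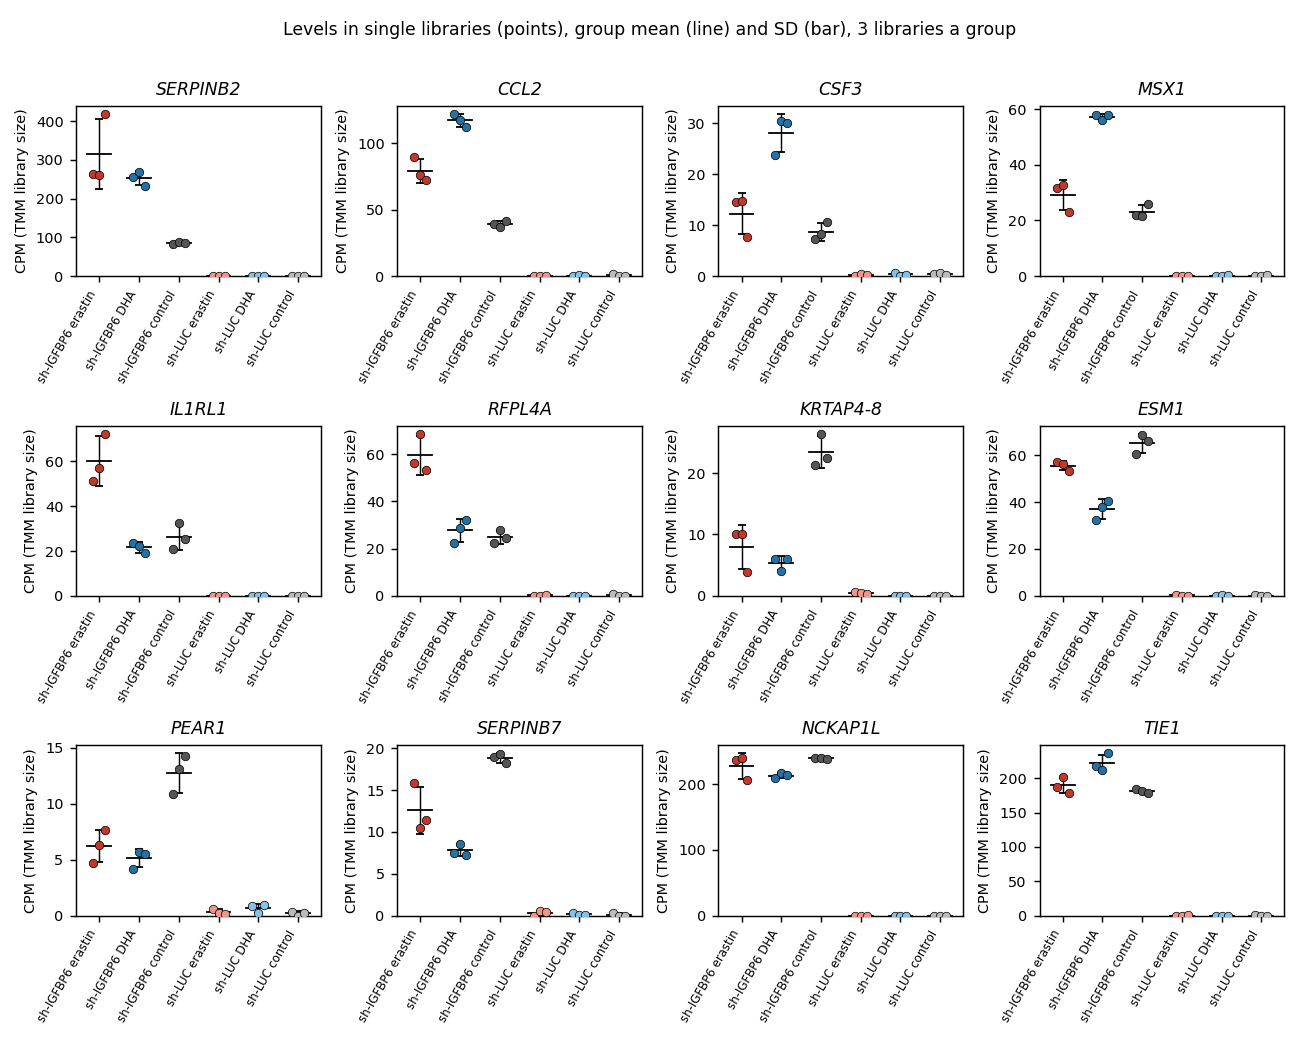
CPM (TMM library size) of 12 members in single libraries (points), with the mean (line) and SD (bar) of the 3 libraries of each group; the linear axis of each panel starts at 0. SERPINB2 and CCL2 are higher with both agents than with vehicle in sh-IGFBP6 cells, IL1RL1 and RFPL4A are high with erastin, CSF3 and MSX1 are highest with DHA, and the sh-LUC groups lie at the foot of every panel.

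Among the transcription factors, MSX1 rose with both agents and TFEC with erastin. MSX1 (chr4:4859666-4863936), a homeobox factor of craniofacial and limb buds, had 31.6, 32.8 and 22.9 CPM with erastin, 58, 56 and 57.7 CPM with DHA and 22, 21.6 and 25.8 CPM with vehicle. The DHA libraries lay above all others, at a log2 fold change of 1.3 ± 0.11 SE (adjusted p = 1.5e-19 by edgeR). With erastin it was 0.46 ± 0.13 SE (adjusted p = 0.0029), the groups overlapped, and DESeq2 did not call it (adjusted p = 0.0873). TFEC, a relative of the MITF factor, rose with erastin by 1.00 ± 0.26 SE (adjusted p = 0.00134), with 7.83, 10.7 and 15.2 CPM against 3.91, 5.01 and 4.68 CPM with vehicle. BCL11A, a factor of blood and brain with 55.5 to 61.8 CPM in untreated sh-IGFBP6 cells, was called with neither agent.

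A further pair of genes rose with erastin. RFPL4A (chr19:55759014-55763175) had 56.4, 68.7 and 53.3 CPM with erastin, 22.5, 28.8 and 32.1 CPM with DHA and 22.3, 27.8 and 24.4 CPM with vehicle. RFPL4AL1 (chr19:55769141-55773179), 5966 bases away on the same strand, had 39.6, 50.2 and 45.7 CPM with erastin, 20.4, 21.1 and 17.3 CPM with DHA and 23.5, 18.3 and 23.9 CPM with vehicle. Erastin libraries lay above all others for both, with log2 fold changes of 1.29 ± 0.12 SE for RFPL4A and 1.04 ± 0.13 SE for RFPL4AL1, and DHA moved neither past the threshold. The 2 genes are near copies of a ret finger protein-like gene. Reads that fit both could be split or dropped by the counting, so their separate values are uncertain and they count as 1 observation at most. The counts of members given in the text still hold them as 2 genes.

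The start regions of 5 responders, picked by hand, are shown because they let the near copies be seen side by side and set the SERPINB2, KRTAP4-8 and MSX1 starts against each other. Each run covers 250 bases before and 50 after the RefSeq start on GRCh38.p14, 5′ to 3′ on the gene's strand, and capitals mark 3 motifs searched on both strands. They were the TATA box (TATAAA), the consensus of AP-1 factors (TGANTCA) and the cyclic AMP response element (TGACGTCA). Of the members, 45 of 66 had an entry in the promoter table, which at 68.2% is under the 80% needed for a check of the whole set, so no share over members is given.
SERPINB2 (chr18:63887455-63887754, plus strand): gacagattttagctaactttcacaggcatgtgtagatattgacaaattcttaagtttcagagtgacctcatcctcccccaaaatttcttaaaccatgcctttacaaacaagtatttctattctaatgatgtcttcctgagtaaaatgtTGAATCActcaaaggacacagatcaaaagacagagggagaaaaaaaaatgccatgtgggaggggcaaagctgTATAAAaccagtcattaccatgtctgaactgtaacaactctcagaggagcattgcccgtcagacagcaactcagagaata
RFPL4A (chr19:55758847-55759146, plus strand): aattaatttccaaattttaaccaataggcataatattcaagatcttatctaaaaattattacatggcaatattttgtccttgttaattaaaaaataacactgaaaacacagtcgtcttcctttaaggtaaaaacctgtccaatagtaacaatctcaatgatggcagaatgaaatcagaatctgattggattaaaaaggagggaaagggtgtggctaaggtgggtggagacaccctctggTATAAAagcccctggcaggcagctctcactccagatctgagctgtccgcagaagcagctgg
RFPL4AL1 (chr19:55768868-55769167, plus strand): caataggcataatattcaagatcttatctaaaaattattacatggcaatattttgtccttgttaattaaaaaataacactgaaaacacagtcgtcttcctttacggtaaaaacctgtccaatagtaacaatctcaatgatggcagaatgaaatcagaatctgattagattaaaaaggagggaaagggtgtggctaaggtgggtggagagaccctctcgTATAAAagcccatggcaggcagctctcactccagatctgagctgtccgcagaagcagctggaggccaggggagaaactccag
KRTAP4-8 (chr17:41098093-41098392, minus strand): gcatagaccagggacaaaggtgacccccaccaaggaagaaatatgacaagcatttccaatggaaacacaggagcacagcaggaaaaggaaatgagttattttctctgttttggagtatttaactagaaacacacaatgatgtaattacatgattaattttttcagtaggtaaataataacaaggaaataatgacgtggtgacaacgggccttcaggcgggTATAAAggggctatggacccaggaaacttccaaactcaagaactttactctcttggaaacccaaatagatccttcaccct
MSX1 (chr4:4859415-4859714, plus strand): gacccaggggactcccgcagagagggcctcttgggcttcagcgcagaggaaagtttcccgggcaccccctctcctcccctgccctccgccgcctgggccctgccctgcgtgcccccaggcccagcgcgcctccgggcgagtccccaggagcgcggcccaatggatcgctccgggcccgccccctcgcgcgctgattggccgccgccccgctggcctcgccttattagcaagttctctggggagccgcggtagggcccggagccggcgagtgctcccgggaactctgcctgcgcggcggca

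TATAAA stood in the windows of SERPINB2, KRTAP4-8 and the near copies RFPL4A and RFPL4AL1, and 9.90% of 14116 promoters of eligible genes hold it. TGANTCA stood in the SERPINB2 window and in 5.70% of all promoters. TGACGTCA stood in none of the 5 and in 2.67% of all promoters. The MSX1 window held no motif of the 3, was 74.7% G and C and had 31 CG dinucleotides, against 39.0% and 1 in the SERPINB2 window. Shifted by 21 bases, the RFPL4A and RFPL4AL1 windows matched at 274 of 279 positions. A match is a description of letters, not of a bound site, and windows picked by hand allow no comparison of shares.

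The members lowered by erastin came from 6 of the 9 groups, and those raised from 5. KRTAP4-8 (chr17:41096981-41098141), a hair keratin-associated protein, had 9.99, 10.1 and 3.81 CPM with erastin, 6.01, 4.07 and 6.02 CPM with DHA and 21.4, 26.4 and 22.4 CPM with vehicle. Both treated groups lay below the untreated one, at log2 fold changes of -1.26 ± 0.17 SE with erastin (adjusted p = 1.4e-09 by edgeR) and -2.21 ± 0.19 SE with DHA (adjusted p = 1.9e-19). KRTAP4-8 has close relatives in the keratin-associated protein cluster, so its own count is uncertain where reads fit several. PEAR1 (chr1:156893698-156916434), a platelet and endothelial receptor, had 4.73, 6.30 and 7.62 CPM with erastin, 4.20, 5.67 and 5.52 CPM with DHA and 10.8, 13.1 and 14.3 CPM with vehicle. Its log2 fold change was -1.24 ± 0.23 SE with erastin and -1.28 ± 0.22 SE with DHA.

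Of the 14 neural genes 5 fell with erastin, where 14.3% of all genes tested and 24.2% of all members were lower. UNC5D, a netrin receptor, had 11.7, 14.9 and 15.2 CPM with erastin, 10.8, 10.8 and 8.78 CPM with DHA and 22.6, 25.6 and 20.4 CPM with vehicle. It fell by 0.81 on the log2 scale with erastin and by 1.18 with DHA, without overlap. SNCAIP fell by 1.01 with erastin and by 1.41 with DHA, from few counts in each library, and DESeq2 gave its erastin change no adjusted p (0.131 on the 9 libraries of the line). PLPPR1 had 2.16, 2.94 and 3.81 CPM with erastin, 6.91, 4.80 and 6.77 CPM with DHA and 5.12, 6.55 and 5.17 CPM with vehicle. It fell with erastin (log2 fold change -1.18 ± 0.33 SE, adjusted p = 0.0027 by edgeR), was at 0.05 with DHA (adjusted p = 0.912), and DHA against erastin was 1.23 ± 0.32 SE. Without erastin replicate 1 its adjusted p with erastin was 0.102. ROBO2 and PCDH17 also fell with erastin, in 3 and 2 of 6 fits with a library left out, and DESeq2 called neither.

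The blood-cell genes fell or were not called with erastin. ABI3 (chr17:49210227-49223225), a WAVE complex subunit of blood cells and microglia, had 15.3, 14.5 and 3.81 CPM with erastin, 12.9, 17 and 13 CPM with DHA and 28.3, 24.3 and 23.4 CPM with vehicle. Its log2 fold change was -0.78 ± 0.15 SE with erastin (adjusted p = 2.3e-05 by edgeR) and -0.76 ± 0.15 SE with DHA (adjusted p = 9.2e-06). GNGT2, a G protein subunit whose gene overlaps the start of ABI3 on the opposite strand, had 24, 22.7 and 22.9 CPM with erastin, 20.7, 18.9 and 19.1 CPM with DHA and 33.4, 33.5 and 31.3 CPM with vehicle. It fell by 0.48 with erastin and by 0.75 with DHA, and DESeq2 did not call the erastin change (adjusted p = 0.0519). Whether the counting used strand was not stated, and 7.76% of the exonic bases of GNGT2 and 5.33% of those of ABI3 are shared, so reads in that stretch cannot be assigned to one of the pair. In the whole WAVE list of 11, members included, erastin raised 4 and lowered 2, and DHA raised 2 and lowered 4. ABI3 was among those lowered by erastin, and ABI3 and NCKAP1L were among those lowered by DHA. Among all genes tested 14.7% were higher and 14.3% lower with erastin, and 17.4% and 16.8% with DHA. NCKAP1L, with -0.02 on the log2 scale (adjusted p = 0.845), was not called with erastin.

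AGMO, an enzyme that cleaves ether lipids, had 3.65, 5.25 and 7.62 CPM with erastin, 6.61, 6.98 and 2.51 CPM with DHA and 9.94, 10.8 and 8.86 CPM with vehicle. Both treated groups lay below vehicle, at -1.17 ± 0.27 SE with erastin (adjusted p = 0.00022 by edgeR) and -0.83 ± 0.24 SE with DHA (adjusted p = 0.00384). DESeq2 called neither change (adjusted p = 0.0627 and 0.115). XIRP2, an actin-binding protein of striated muscle, rose with erastin by 0.87 ± 0.28 SE (adjusted p = 0.0115) and was at 0.00 with DHA. SERPINB7, a skin protease inhibitor next to SERPINB2 on chromosome 18, was lower with erastin by -0.48 ± 0.17 SE (adjusted p = 0.0248), a call that 3 of 6 fits with a library left out kept. GLB1L3 was lower by -0.61 ± 0.21 SE (adjusted p = 0.0186), also in 3 of 6. DESeq2 did not call the erastin changes of XIRP2, SERPINB7 or GLB1L3.

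DHA raised 8 and lowered 29 of the 66 members in sh-IGFBP6 cells. Among all genes tested 17.4% were higher and 16.8% lower with DHA, against 12.1% and 43.9% of members. The median log2 fold change was -0.33 over members and 0.00 over all genes. The counts were 6 and 17 with DESeq2, and 16 of those 17 also held in each of the 6 edgeR fits with a library left out. Over all genes, without the filter on low counts, DESeq2 called 3575 of 40442 with DHA, 47.3% of them higher. With scaling by library size alone the member counts were 6 and 28, with 33.3% of all calls higher in place of 50.8%. DHA and erastin were set against the same vehicle libraries, so the 2 responses are given side by side and were compared only by the direct test between them.

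**Figure D3:**
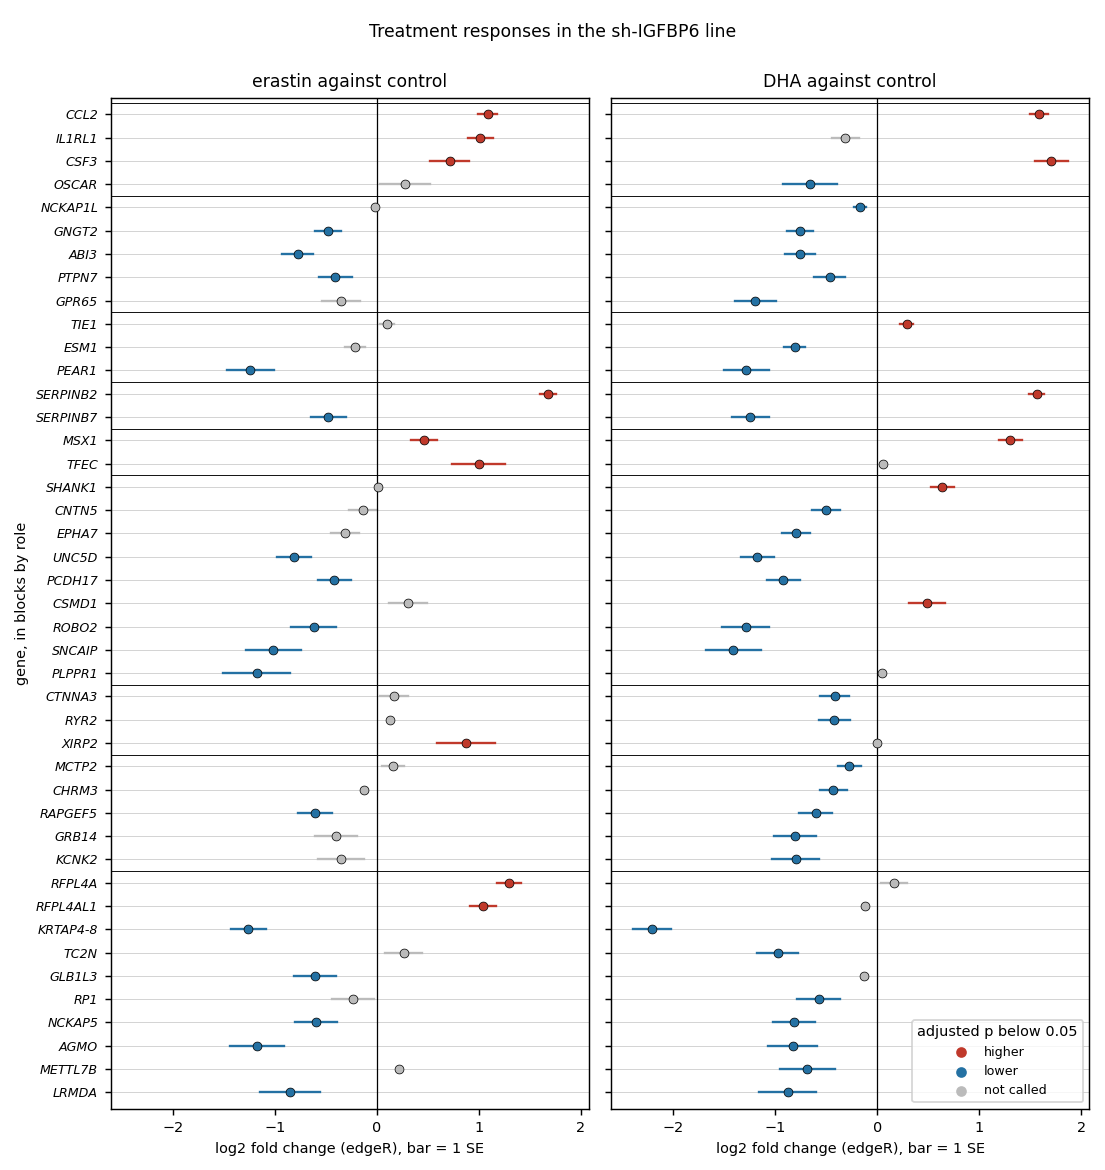
Log2 fold change (point) and 1 SE (bar, drawn where the F statistic was at least 1) of 43 members called with erastin (left) or DHA (right) against vehicle in sh-IGFBP6 cells, in blocks by role; red is higher and blue lower at an adjusted p below 0.05, grey not called. Red points in both panels include SERPINB2, CCL2, CSF3 and MSX1, and DHA has more blue points (29) than erastin (16).

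The members lowered by DHA came from 8 of the 9 groups. In receptor signalling and channels 5 of 7 genes fell, in the neural group 6 of 14, in the blood-cell group 5 of 11, in the muscle group 2 of 5 and in the endothelial and matrix group 2 of 4. Over all members 43.9% were lower with DHA, and over all genes tested 16.8%. These groups are small and were not tested against the other members. ESM1 (chr5:54977864-55022671), a proteoglycan that endothelial cells secrete, had 57, 56.1 and 53.3 CPM with erastin, 32.4, 38 and 40.6 CPM with DHA and 60.5, 68.4 and 66.2 CPM with vehicle. It fell with DHA by 0.81 on the log2 scale (SE 0.10, adjusted p = 1.9e-11 by edgeR), and was at -0.21 ± 0.10 SE with erastin (adjusted p = 0.0997). TIE1, the other endothelial gene with many counts, rose with DHA to 218, 212 and 236 CPM, by 0.29 ± 0.06 SE (adjusted p = 7.5e-05), against 184, 182 and 178 CPM with vehicle. In the list around TIE1, DHA raised 4 of 10 genes, which were TIE1 itself, VEGFA, VEGFB and VEGFC. Among all genes tested 17.4% were higher with DHA. VEGFA had 86.4 ± 6.7 CPM with DHA against 48.9 ± 6.8 CPM with vehicle.

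Among the neural genes the guidance receptors fell with DHA. EPHA7, an ephrin receptor, had 20.1, 24.6 and 22.9 CPM with erastin, 16.2, 15.3 and 16.1 CPM with DHA and 28.6, 28.7 and 24.9 CPM with vehicle, a log2 fold change of -0.80 ± 0.14 SE with DHA (adjusted p = 7.2e-07 by edgeR). ROBO2, a Slit receptor, had 7.43, 6.51 and 19 CPM with erastin, 3.60, 5.09 and 4.77 CPM with DHA and 10.8, 11.9 and 11.1 CPM with vehicle, and fell with DHA by 1.29. The value of 19 CPM comes from the thin library. The adhesion molecules CNTN5 and PCDH17 fell with DHA by 0.50 and 0.92. SHANK1 went the other way. It had 32.1, 26 and 26.7 CPM with erastin, 44.1, 45.1 and 47.7 CPM with DHA and 25.3, 29.1 and 33 CPM with vehicle, a rise of 0.64 ± 0.11 SE with DHA (adjusted p = 9.8e-07). CSMD1 was higher with DHA by 0.49 ± 0.17 SE (adjusted p = 0.0195), in 3 of 6 fits with a library left out and not with DESeq2. LRFN5, a synaptic adhesion molecule with 26.8 to 34.2 CPM in untreated cells, was called with neither agent.

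In the blood-cell group GPR65, a proton-sensing receptor, had 13.9, 9.45 and 26.7 CPM with erastin, 9.01, 6.26 and 6.27 CPM with DHA and 18.7, 16.8 and 12.6 CPM with vehicle. It fell with DHA by 1.19 (SE 0.20, adjusted p = 3.9e-07 by edgeR). NCKAP1L fell with DHA by 0.17 (SE 0.06, adjusted p = 0.0216), a change of small size that 3 of 6 fits with a library left out kept. SERPINB7 had 15.8, 10.5 and 11.4 CPM with erastin, 7.51, 8.58 and 7.28 CPM with DHA and 19, 19.3 and 18.2 CPM with vehicle, so it fell with DHA (log2 fold change -1.24 ± 0.18 SE, adjusted p = 6.1e-09) while its neighbour SERPINB2 rose. TC2N had 15.9, 18.7 and 19 CPM with erastin, 8.11, 7.27 and 6.52 CPM with DHA and 14.5, 18.3 and 9.35 CPM with vehicle, and fell with DHA by 0.98.

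In receptor signalling, GRB14, an adaptor that restrains the insulin receptor, had 5.71, 6.69 and 6.27 CPM with DHA and 11.7, 10.6 and 11.1 CPM with vehicle (log2 fold change -0.81 ± 0.21 SE, adjusted p = 0.00114 by edgeR). CHRM3, the muscarinic receptor of smooth muscle and glands, had 29.7, 21.7 and 31.6 CPM with DHA and 37.6, 37.8 and 32.5 CPM with vehicle, and without DHA replicate 2 its adjusted p of 0.00617 became 0.241. RAPGEF5, an exchange factor of RAP proteins, fell by 0.60 with DHA and by 0.61 with erastin. Its erastin call was lost with DESeq2 (adjusted p = 0.102) and without erastin replicate 1 (adjusted p = 0.0507). MCTP2, a calcium-binding membrane protein, was lower with DHA by -0.27 ± 0.11 SE (adjusted p = 0.042), in 1 of 6 fits with a library left out. Among the muscle genes RYR2, a calcium release channel, and CTNNA3, a junction protein of heart muscle, each fell with DHA by 0.42, and SGCZ, with 25.8 to 28.6 CPM in untreated cells, was called with neither agent. DESeq2 did not call the DHA changes of CHRM3, RAPGEF5, MCTP2, RYR2 or CTNNA3.

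Set directly against each other, DHA-treated cells had 7 members higher and 22 lower than erastin-treated cells. Among all genes tested 13.1% were higher and 12.8% lower in that comparison, against 10.6% and 33.3% of members. DESeq2 called 4 and 5 members, and 2250 of 40442 genes without the filter on low counts, 51.9% of them higher. Without erastin replicate 1 the edgeR counts were 4 and 12. The members that differed most were IL1RL1 (-1.33), TC2N (-1.24 ± 0.20 SE), RFPL4AL1 (-1.16 ± 0.13 SE) and RFPL4A (-1.13 ± 0.11 SE) on the low side. On the high side were PLPPR1 (1.23), CSF3 (0.99 ± 0.15 SE), MSX1 (0.84 ± 0.11 SE), SHANK1 (0.63 ± 0.12 SE) and CCL2 (0.50 ± 0.08 SE). SERPINB2, with -0.11 ± 0.07 SE (adjusted p = 0.23 by edgeR), was not called between the agents. Of the 5 muscle genes 4 were lower with DHA than with erastin, among them RBM20, a splicing factor of heart muscle, by -0.92 ± 0.26 SE (adjusted p = 0.00347), and XIRP2 by -0.87 ± 0.28 SE (adjusted p = 0.0112). TFEC was lower by -0.94 ± 0.25 SE and GPR65 by -0.84 ± 0.21 SE, each without overlap between the groups. DESeq2 called none of these 4 muscle genes (adjusted p = 0.0581 to 0.145), nor PLPPR1, TFEC or GPR65, in this comparison.

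The rule held the members under 0.5 CPM over all 9 sh-LUC libraries, treated ones included, so their low level there under treatment was set by the choice of members. They entered the fit only through the sh-IGFBP6 line, and with the sh-LUC libraries fitted alone 0 members passed the filter on low counts. The calls in sh-LUC cells are therefore given as a record of the fit and support nothing. With erastin edgeR called 2 members higher and 1 lower, where 21.4% of all genes were higher and 24.4% lower. 7 members had an unadjusted p below 0.05, and DESeq2 called 1. KRTAP4-8 had 4, 4 and 2 counts in the erastin libraries and none in the vehicle libraries. XIRP2 had 7, 8 and 4 counts with erastin and 0, 0 and 2 with vehicle, and PCDH17 had 0, 0 and 1 with erastin and 1, 1 and 3 with vehicle. With DHA edgeR and DESeq2 called 0 members, where edgeR called 7.14% of all genes higher and 9.63% lower, and 1 member had an unadjusted p below 0.05 by edgeR and 0 by DESeq2. At these counts a change of moderate size was not detectable, and the difference between the lines in the response of a member was not tested.

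Some members lay side by side on their chromosomes. Neighbouring protein-coding pairs in which both were members numbered 6: RFPL4A with RFPL4AL1, SHANK1 with CLEC11A, GNGT2 with ABI3, SERPINB7 with SERPINB2, TC2N with FBLN5, and GLB1L3 with GLB1L2. Gaps ran from 0 bases for the overlapping GNGT2 and ABI3 to 66316 bases for the SERPINB pair. Of the 120 other protein-coding genes next to a member, 65 were tested between the untreated lines, 33 were higher (50.8%) and 19 lower (29.2%), beside 32.5% and 32.1% of all genes. The median log2 fold change of these neighbours was 0.22, and that of all genes 0.01. Among them ZNF503, next to LRMDA, had 14.9 CPM in sh-IGFBP6 and 0.280 CPM in sh-LUC cells, and ROBO1, next to ROBO2, had 98.2 CPM in sh-IGFBP6 and 23.3 CPM in sh-LUC cells. IL18R1 next to IL1RL1, PRR29 next to ICAM2 and ITGA7 next to METTL7B were also higher, but each overlaps its member, so reads may be shared. LGR6, next to PTPN7, went the other way, with 0 CPM in sh-IGFBP6 and 25.5 CPM in sh-LUC cells. 4 noncoding genes that met the same levels lay within 500000 bases of a member: CHRM3-AS2, LRFN5-DT, LINC00648 near MDGA2 and an unnamed antisense gene near PEAR1.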

How the data were processed

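RNA of 18 libraries, 3 in each of 6 groups, was measured by sequencing after ribosomal RNA removal. The deposited values are raw counts per gene, per the labels. The submitters' processing notes name cutadapt 4.4, STAR 2.7.7a, featureCounts and GRCh38, without roles. Neither the annotation release nor the strand setting was stated. Lines naming no gene held at most 0.0108% of a library and were left out, with 1 gene that had blank counts. Gene types and coordinates came from GENCODE release 29, and 2246 of 60709 genes had no type there and could not be members.

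The model was edgeR 4.0.16 (R 4.3.3) with TMM factors, filterByExpr (minimum count 10, minimum total 15), 1 coefficient per group over all 18 libraries, robust dispersions, quasi-likelihood F tests and Benjamini-Hochberg adjustment over 15189 genes. An SE is the log2 fold change over the root of F, given where F was at least 1. The fit was tested on simulated data. Gene totals ran from 609936 to 7977429 counts per library, and no replicate columns were identical. Alternatives were DESeq2 1.42.0, other scalings, no filter, fits of only the libraries compared, a replicate block, each library left out, a 2-fold minimum and other membership thresholds.

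The members, roles, gene lists and tests were chosen with earlier results of these data known. Members were named by a rule: the 12 with the highest means, up to 8 called rises and 8 called falls per comparison without overlap, the 3 genes on each side of each threshold, members called in sh-LUC, listed pathways and adjacent pairs, and up to 3 further members of each role. Flanking genes that are no members, and any other gene this rule does not reach, were named after their values were seen. Promoter sequences are RefSeq's, on GRCh38.p14. Some items are not reported here.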

Additional observations from a re-analysis of the deposited data

How the results depend on the processing

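Of 1278 values of single named genes under the alternatives, 1133 kept their direction and their side of the threshold, 132 lost the call, 13 gained one and 0 changed direction. DESeq2 called 10 members with erastin in sh-IGFBP6 (6 higher, 4 lower) in place of 26 (10 and 16), 23 with DHA (17 lower) in place of 37 (29 lower), and 9 for DHA against erastin (4 higher, 5 lower) in place of 29 (7 and 22). DESeq2 on the 9 libraries of the line, chosen after seeing the data, called 9 (5 higher, 4 lower), 19 (13 lower) and 9 (4 higher, 5 lower). Over all genes it called 1964, 2444 and 1366 of 35441 in this order, with 49.8%, 51.5% and 55.6% of them higher. A 2-fold minimum left 10 (5 higher, 5 lower) with erastin, 11 (4 higher, 7 lower) with DHA and 5 (1 higher, 4 lower) for DHA against erastin, and 9 of the 20 called pathway partners (4 higher, 5 lower). The share of all genes at that minimum is not given, so these counts do not set the members apart. The causes of the DESeq2 differences were not tested.

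With each library left out in turn, erastin called 19 to 26 members, 9 to 12 higher and 9 to 16 lower, and without control replicate 2 the 12 and 9 were in the other order. DHA called 30 to 39, 7 or 8 higher and 22 to 31 lower. DHA against erastin called 16 to 29, 4 to 7 higher and 12 to 22 lower, lowest without erastin replicate 1 (4 and 12) and with 14 lower without DHA replicate 2 or erastin replicate 2. These fits tested 15536 to 15752 genes. Over all of them they called 3277 to 4354 with erastin, 4268 to 5250 with DHA and 2592 to 3874 for DHA against erastin. In sh-LUC with erastin the 3 calls (2 higher, 1 lower) became 1 to 4, 0 to 2 higher and 0 to 2 lower. They were 1 higher and 1 lower with library size scaling, 1 (1 higher, 0 lower) without the filter, 1 (0 higher) with DESeq2 and 0 (0 and 0) where only the sh-LUC libraries were fitted, since no member then passed the filter.

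The number of members was 38 with a floor of 10 CPM, 117 with a floor of 2 CPM, 25 with a ceiling of 0.1 CPM and 93 with a ceiling of 1 CPM, and 63 to 67 with a library left out. By vehicle libraries alone 74 genes met the thresholds, 59 of them members, and among these 59 erastin called 7 higher and 16 lower, DHA 6 and 27, DHA against erastin 6 and 20. Over all genes tested the shares in this order were 14.7% and 14.3%, 17.4% and 16.8%, and 13.1% and 12.8%. CCL2 and SERPINB2 were not among the 59. The vehicle libraries that chose the 59 are also the baseline for erastin and for DHA. Such a choice can favour falls, so these counts are no independent check of the excess of lowered members. Same-numbered libraries showed no clear shared deviation over all genes tested (18 correlations of -0.0398 to 0.0792), and the main fit used no pairing. Such correlations can miss a weak shared effect or one on few genes. With a replicate block the counts were 10 and 14 with erastin, 8 and 31 with DHA and 7 and 21 for DHA against erastin. Depth limits the members in sh-LUC cells and in erastin replicate 3 of sh-IGFBP6, where most had under 10 counts.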
